A study of Rattus norvegicus with 6 samples.

Results

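Rasgrp2 and 7 genes of the megakaryocyte and platelet lineage (Pf4, Ppbp, Itga2b, Gp1ba, Gp1bb, Gp9 and Treml1) were followed in RNA of rat jaw tissue, labelled as alveolar, which is the bone that holds the teeth and the soft tissue around them. They are 8 of the 37203 genes in the deposited count table, matched by symbol, and all 8 passed the filter on low counts that left 16066 genes to test. Rasgrp2 was taken because it stood higher in the case libraries. The platelet genes were set beside it because of their lineage, with results of these libraries already known.

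The study compared teeth moved with and without corticision, a surgical cut through the cortical bone that is used to hasten tooth movement. Of the 6 libraries, 3 are titled case (5, 6 and 9) and 3 control (5, 6 and 10). The source field describes the case libraries as tooth movement without corticision and the control libraries as tooth movement with it, so titles and source field point opposite ways in their usual sense. Groups are named by title here, every difference is case minus control, and no direction is assigned to the surgery. Strain, age, sex and time after surgery are not given in the labels used here, and neither is whether each library is a separate animal. The spread between libraries of a group may therefore be technical. Library totals ran from 10886303 to 14433740 counts. Bone genes marked the tissue in all 6 libraries, the lowest value of Col1a1, Bglap, Ibsp and Spp1 being 1969 CPM (counts scaled to library size), and each of the 8 genes had at least 135 counts in each library. The first principal component of log2 CPM, with 42.3% of the variance, gave the libraries numbered 5 scores of -34.8 (case) and -77.2 (control) and the remaining 4 scores of 24.9 to 30.7, so results are also given without these 2.

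Platelets are cell fragments shed by megakaryocytes of the marrow and carry RNA from them. Rasgrp2 encodes a guanine nucleotide exchange factor, also called CalDAG-GEFI, that answers to calcium and switches on the small GTPase Rap1. Active Rap1 acts through talin and kindlin-3, and in some cells through the adaptor protein RIAM, to bring integrins into their binding state. This happens on platelets and also on neutrophils and other leukocytes, in which Rasgrp2 is expressed as well. Itga2b, Gp1ba, Gp1bb, Gp9 and Treml1 encode platelet surface proteins, and Pf4 and Ppbp encode chemokines stored in platelet granules.

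Promoters of the platelet genes are shown because transcription factors of the GATA, RUNX and ETS families drive megakaryocyte genes and their own transcripts were measured here. RefSeq's promoter table (assembly GRCr8) held 7 of the 8 genes, all but Pf4. The 250 bases before the annotated start were searched on both strands for a GATA motif (AGATAA or its variant AGATAG, and likewise TGATAA or its variant TGATAG), a RUNX motif (TGTGGT) and an ETS core (GGAAG). No match overlapped another. Capitals mark every match to any of the 3, on either strand, and each stretch reads 5′ to 3′ along the gene's own strand. The windows of Itga2b and Gp1ba overlap the annotated spans of these same genes, and that of Gp1bb overlaps the span of Septin5. A stretch of 30 bases around a GATA match is therefore given for these 3 genes. The window of Rasgrp2 also overlaps the span of Rasgrp2 itself. The starts used for Itga2b, Gp1ba and Rasgrp2 may thus not be the outermost ones of these genes. For Gp9 and Ppbp the full 250 bases are given.
Itga2b, chr10:87925871-87925900, minus strand: tgagctccagtcTGATAAgccgaaaCTTCC
Gp1ba, chr10:55851443-55851472, plus strand: tgtggagagaggAGATAAgagcctgtgccc
Gp1bb, chr11:95882462-95882491, plus strand: tgcgggcccaggAGATAGtaccCTATCTgc
Gp9, chr4:121792592-121792841, plus strand: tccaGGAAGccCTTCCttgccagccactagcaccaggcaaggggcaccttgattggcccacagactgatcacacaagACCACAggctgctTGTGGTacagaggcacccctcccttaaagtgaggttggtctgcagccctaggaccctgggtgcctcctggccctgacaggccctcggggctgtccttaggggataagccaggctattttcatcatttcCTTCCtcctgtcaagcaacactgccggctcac
Ppbp, chr14:17587300-17587549, minus strand: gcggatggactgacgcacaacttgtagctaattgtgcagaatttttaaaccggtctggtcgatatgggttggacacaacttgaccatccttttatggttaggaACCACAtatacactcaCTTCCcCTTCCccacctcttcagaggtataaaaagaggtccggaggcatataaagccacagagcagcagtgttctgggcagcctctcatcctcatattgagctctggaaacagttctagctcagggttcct

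The GATA motif was found in 3 of the 7 promoters (Itga2b, Gp1ba and Gp1bb) and in 27.0% of all 33469 promoters of the table. Itga2b held TGATAA with its first base 55 bases before the start, and an ETS core on the opposite strand 42 bases before it. Gp1bb held the motif in both orientations, at 87 and 77 bases before the start. The RUNX motif was found in 4 of the 7 (Ppbp, Itga2b, Gp9 and Gp1bb) and in 14.5% of all promoters, and the ETS core in 5 of the 7 and in 63.3% of all. The windows of Rasgrp2 and Treml1 held none of these letters, but that of Rasgrp2 overlaps the gene's own span and may not precede its outermost start. These are matches of letters and not measured binding sites.

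Rasgrp2 stood higher in every case library than in every control library, and 0 of the 7 platelet genes had groups that did not overlap. Such groups were found in 4.05% of all tested genes with case higher and in 4.42% with case lower, so a count of 0 among 7 genes says nothing particular about them. Values are in CPM, counts scaled to library size and composition but not to gene length, so they are compared between libraries and not between genes. Rasgrp2 was at 165.7, 189.3 and 193.3 CPM in case 5, 6 and 9, against 119.9, 125.5 and 107.3 CPM in control 5, 6 and 10. The lowest case value thus lay above the highest control value. The group means were 182.8 ± 14.9 and 117.6 ± 9.31 CPM (all ± values are SDs over n = 3 libraries), a log2 fold change of 0.64 (SE 0.14), or 1.55-fold. The gene was chosen for this difference, so it is given as a description with no test. Without each library in turn the log2 fold change ran from 0.59 to 0.73, and without both libraries numbered 5 it was 0.76. Within the groups Rasgrp2 varied by 8.04% (coefficient of variation, CV), where counting alone gives 2.41%. In assembly GRCr8 its span overlaps that of a lncRNA gene. Whether strand was used in counting is not given in the sources, so reads of this lncRNA could be among those of Rasgrp2.

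**Figure D1:**
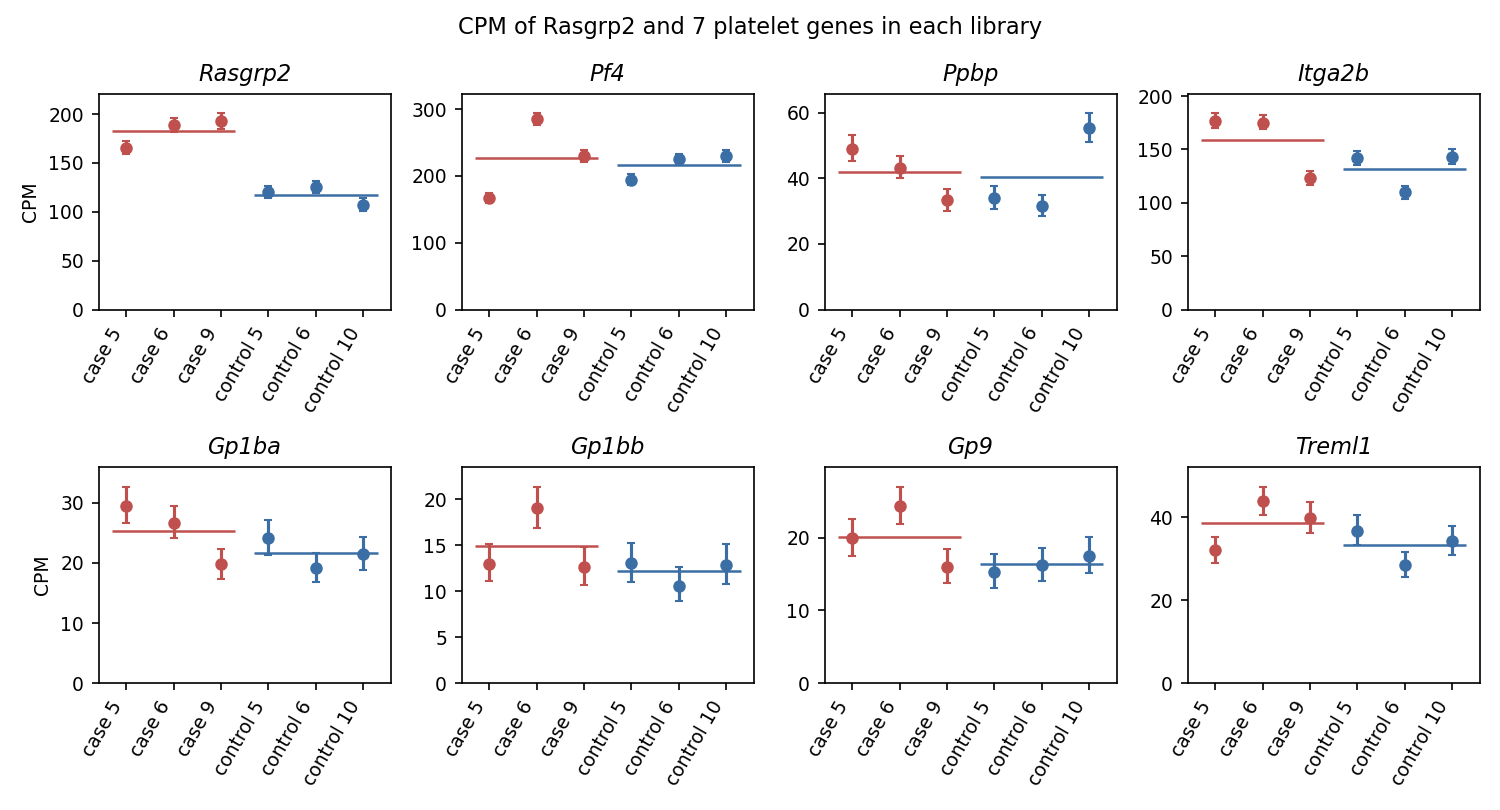
CPM of each gene (vertical axis, linear from 0) in each of the 6 libraries (horizontal axis), case in red and control in blue; bars are 95% exact Poisson intervals, which cover counting error only, and horizontal lines are group means. Rasgrp2 lies between 165.7 and 193.3 CPM in case and between 107.3 and 125.5 CPM in control, while the groups of every platelet gene overlap.

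In whole tissue, fewer cells of a type and less RNA per cell cannot be told apart, for Rasgrp2 as for the platelet genes. The edgeR quasi-likelihood test across all genes called 0 of the 16066 at a Benjamini-Hochberg adjusted p of 0.05, which is 0%, and so 0 of the 8 genes. At an unadjusted p under 0.05 edgeR gave 666 of the 16066 genes, less than the share of 0.05 that this threshold passes where no gene differs. limma-voom called 0 genes and DESeq2 21 of 16027, or 0.131%, with Rasgrp2 and none of the platelet genes among them. Since Rasgrp2 was chosen on this comparison, nothing is read from these counts, or from the share of separate groups, about it.

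The granule chemokine genes Ppbp and Pf4 had the highest within-group CVs of the 8 genes (26.5% and 19.4%) and the log2 fold changes nearest to 0. Pf4, which encodes platelet factor 4, was at 167.1, 285.2 and 229.9 CPM in case 5, 6 and 9, against 194.3, 224.7 and 230.1 CPM in control 5, 6 and 10. Case libraries held both its highest and its lowest value, so the case range enclosed the control range. Its log2 fold change was 0.07 (SE 0.22), and -0.13 without case 6. Ppbp, which encodes pro-platelet basic protein, was at 49.06, 43.24 and 33.46 CPM in case 5, 6 and 9, against 34.05, 31.56 and 55.3 CPM in control 5, 6 and 10. Here control 10 was the highest library and control 6 the lowest. Its log2 fold change was 0.06 (SE 0.26), with negative values without case 5 (-0.04), control 5 (-0.05) or control 6 (-0.07) and a value of 0.39 without control 10. The 2 genes lie side by side in assembly GRCr8, but their counts did not keep one ratio: Pf4 had 3.41 counts for each count of Ppbp in case 5 and 7.12 in control 6.

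Itga2b, which encodes the alpha subunit of the platelet fibrinogen receptor, was at 176.9, 175.2 and 123.3 CPM in case 5, 6 and 9, against 142.3, 109.7 and 143.1 CPM in control 5, 6 and 10. Case 5 and case 6 exceeded every control, but case 9 lay inside the control range. The log2 fold change was 0.27 (SE 0.20). The integrin's other subunit, Itgb3, which osteoclasts also express and which is named here outside the rule for named genes, was at 118.4 ± 70.7 CPM in the case libraries against 126.9 ± 39.1 CPM in the controls, with its highest values in case 5 (198 CPM) and control 5 (169 CPM).

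Gp1ba, Gp1bb and Gp9 encode subunits of the receptor by which platelets hold on to von Willebrand factor. Gp1ba was at 29.56, 26.68 and 19.75 CPM in case 5, 6 and 9, against 24.16, 19.13 and 21.48 CPM in control 5, 6 and 10, a log2 fold change of 0.23 (SE 0.20). Gp9 was at 19.89, 24.35 and 15.97 CPM in case, against 15.32, 16.21 and 17.46 CPM in control in the same order, a log2 fold change of 0.30 (SE 0.20). Gp1bb was at 13.02, 19.09 and 12.61 CPM in case, against 13.04, 10.63 and 12.89 CPM in control, a log2 fold change of 0.29 (SE 0.23). In all 3 genes case 9 lay inside the control range. In Gp1bb the counting interval of case 6 (16.9 to 21.4 CPM) lay above the values of all other libraries. Control 6, the lowest library for Gp1bb, had an interval of 8.91 to 12.6 CPM. This overlapped the interval of case 9, the next library up (10.7 to 14.8 CPM). Without case 6 the log2 fold changes of Gp1ba, Gp9 and Gp1bb were 0.19, 0.13 and 0.07.

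Gp1bb lies inside the span of Septin5 in assembly GRCr8, which the count table lists as Sept5. Since the use of strand is not known, reads of the 2 genes may have been shared or split. Gp1bb counts equalled 5.87% (control 6) to 8.8% (case 6) of the Sept5 counts. Gp1ba overlaps the spans of Chrne, Slc25a11 and the pseudogene Rpl36al-ps2, which carries the same doubt. Gp5, the remaining subunit gene of the receptor and here named outside the rule, was too low to test. It had 3 to 5 counts in the case libraries and 1 to 7 in the controls.

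Treml1, which encodes a receptor of platelet granules that reaches the surface on activation, was at 32.04, 43.9 and 39.84 CPM in case 5, 6 and 9, against 36.76, 28.57 and 34.37 CPM in control 5, 6 and 10. Case 6 and case 9 exceeded every control, while case 5 lay below control 5 and control 10. The log2 fold change was 0.22 (SE 0.18), 0.11 without case 6 and 0.45 without both libraries numbered 5.

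As a group, the 7 platelet genes had log2 fold changes between 0.06 and 0.30, all 7 positive, with a median of 0.23. Over all tested genes the median was -0.024, and 46.3% were positive. The median of the 7 was 0.11 without case 6, 0.38 without case 9 and 0.37 without control 10. Of the 7, 6 or 7 were positive when any 1 library was left out. Without both libraries numbered 5, 6 were positive and the median was 0.28. Case 6 was the highest library in 4 of the 7 genes and control 6 the lowest in 5. Within-group CVs of the 7 ran from 14.2% (Treml1) to 26.5% (Ppbp), all above the 8.04% of Rasgrp2. Choosing Rasgrp2 for its group difference favours a gene with a small spread within groups, so nothing is read from this contrast of CVs.

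**Figure D2:**
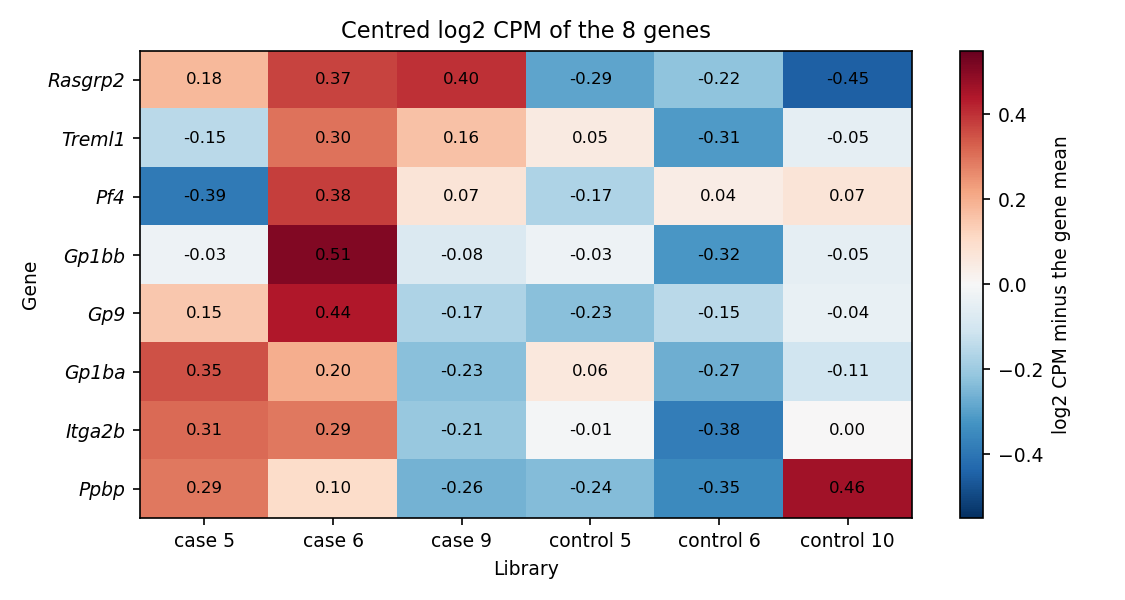
Log2 CPM of each gene minus its mean over the 6 libraries (colour and printed value), genes in rows and libraries in columns. Rasgrp2 is above its mean in all 3 case libraries (0.18 to 0.40) and below it in all 3 controls (-0.45 to -0.22), a pattern that none of the other rows repeats.

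A ratio within a library does not depend on how libraries are scaled. Rasgrp2 counts equalled 34%, 30.6% and 40.7% of the summed counts of the 7 platelet genes in case 5, 6 and 9, and 26.1%, 28.5% and 20.8% of them in control 5, 6 and 10. The case libraries thus lay above the controls, with means of 35.11% ± 5.12 and 25.13% ± 3.90. This sum is led by Pf4 and Itga2b. With each platelet gene given the same weight, log2 CPM of Rasgrp2 minus the mean log2 CPM of the 7 was 1.88, 1.83 and 2.28 in case 5, 6 and 9, against 1.57, 1.81 and 1.29 in control 5, 6 and 10. Case 6 and control 6 then differed by little, and the group means were 2 ± 0.247 and 1.557 ± 0.258, a difference of 0.44. Taken against each platelet gene alone, Rasgrp2 separated the groups only in its ratio to Pf4 (-0.59 to -0.01 in case and -1.10 to -0.70 in control, as differences of log2 CPM), and overlapped in the other 6. Rasgrp2 was chosen on this contrast, so these ratios carry no test.

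**Figure D3:**
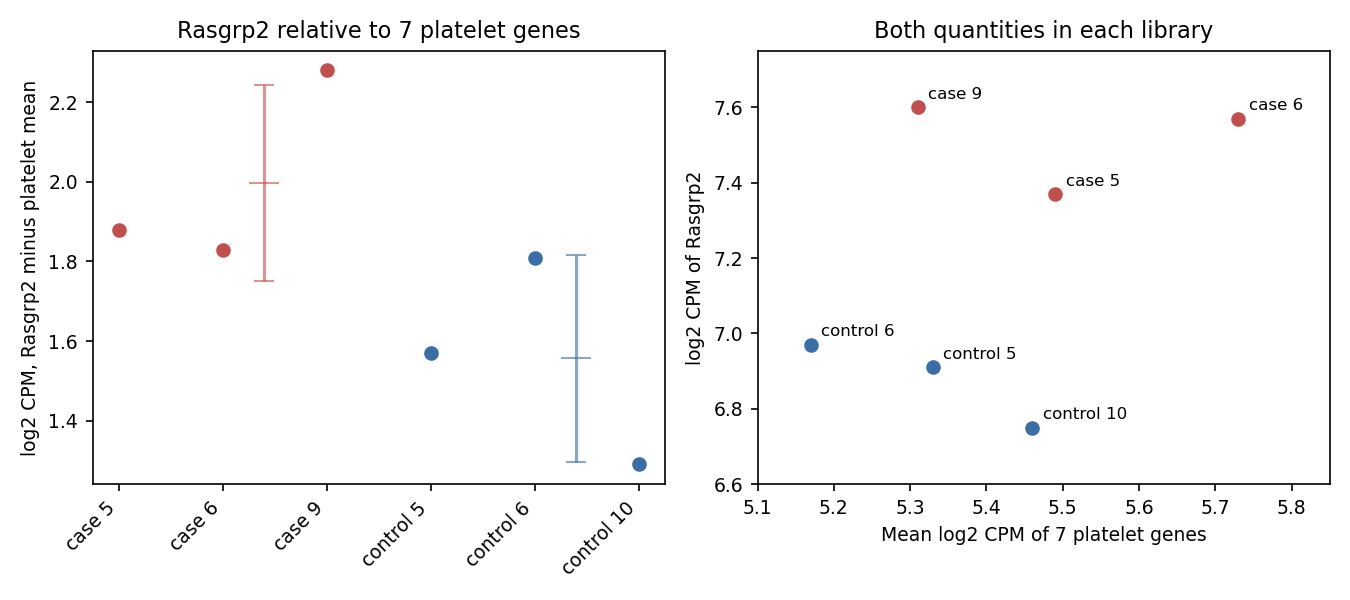
Left, log2 CPM of Rasgrp2 minus the mean log2 CPM of the 7 platelet genes in each library, with group means and SD as bars beside the points (n = 3); right, the log2 CPM of Rasgrp2 against that platelet mean, 1 point per library, case in red and control in blue. On the right the groups are apart on the vertical axis (7.37 to 7.60 against 6.75 to 6.97) and overlap on the horizontal axis (5.31 to 5.73 against 5.17 to 5.46).

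Likeness of pattern was measured as the root mean square difference of centred log2 CPM over the 6 libraries, against 10762 other genes whose mean reached 5 CPM. With so few libraries many genes come close to any profile, so this is a description. The closest pair among the 8 was Itga2b and Gp1ba, which differed by 0.0799. Of the other genes, 0.0372% were nearer to Itga2b and 0.0836% nearer to Gp1ba. Gp9 and Gp1bb differed by 0.139, and Gp1bb and Treml1 by 0.143. Other platelet genes were far apart: Pf4 and Ppbp differed by 0.397, with 65% of genes nearer to Pf4. Treml1 and Ppbp differed by 0.354, with 63.3% of genes nearer to Treml1. The distances of Rasgrp2 to the platelet genes ran from 0.273 (Treml1, with 9.72% of genes nearer) to 0.476 (Ppbp, with 68.9% nearer). The 5 genes nearest to Rasgrp2 were Apbb1ip (0.0865), Gmip (0.0883), Fmnl1 (0.0896), Slc12a9 (0.0962) and Stk10 (0.101). Those nearest to the mean of the 7 platelet genes were Eef2k (0.0568), Nup93 (0.0686), Zadh2 (0.069), Mb21d2 (0.0747) and Atpaf1 (0.0783).

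The nearest gene, Apbb1ip, encodes the adaptor RIAM and stands on the list of 22 Rap1 and integrin activation genes. It was at 57.4, 71.9 and 76.4 CPM in case 5, 6 and 9, against 49.5, 45.5 and 38.3 CPM in control 5, 6 and 10. Its groups did not overlap, and its log2 fold change was 0.63 (SE 0.17) with an edgeR adjusted p of 0.999. Rasgrp2 was chosen as higher in case, so the gene nearest to it shares that difference by selection. Nothing is therefore read from these values of Apbb1ip. In the whole list 0 genes passed in either direction. A positive log2 fold change was found in 16 of 22, against 46.3% of all tested genes, and the median was 0.20. Groups were separate with case higher in 3 of the 22, Apbb1ip included, and with case lower in 0. Over all tested genes these shares were 4.05% and 4.42%, and no set test was run. The 2 besides Apbb1ip were Fermt3, which encodes kindlin-3 (374.6 ± 64.0 CPM in case, 269.4 ± 13.7 CPM in control), and Itgal, the alpha subunit of the leukocyte integrin LFA-1 (139.2 ± 17.9 and 97.63 ± 17.6 CPM). Talin, encoded by Tln1, was at 982.6 ± 116 and 771.3 ± 117 CPM and overlapped. Rap1b, the main Rap1 GTPase of platelets and here named outside the rule, was at 185 ± 15.2 and 183.9 ± 24.1 CPM, and Itgb1, a widely expressed integrin subunit, was at 323.2 ± 33.2 and 353 ± 51.0.

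**Figure D4:**
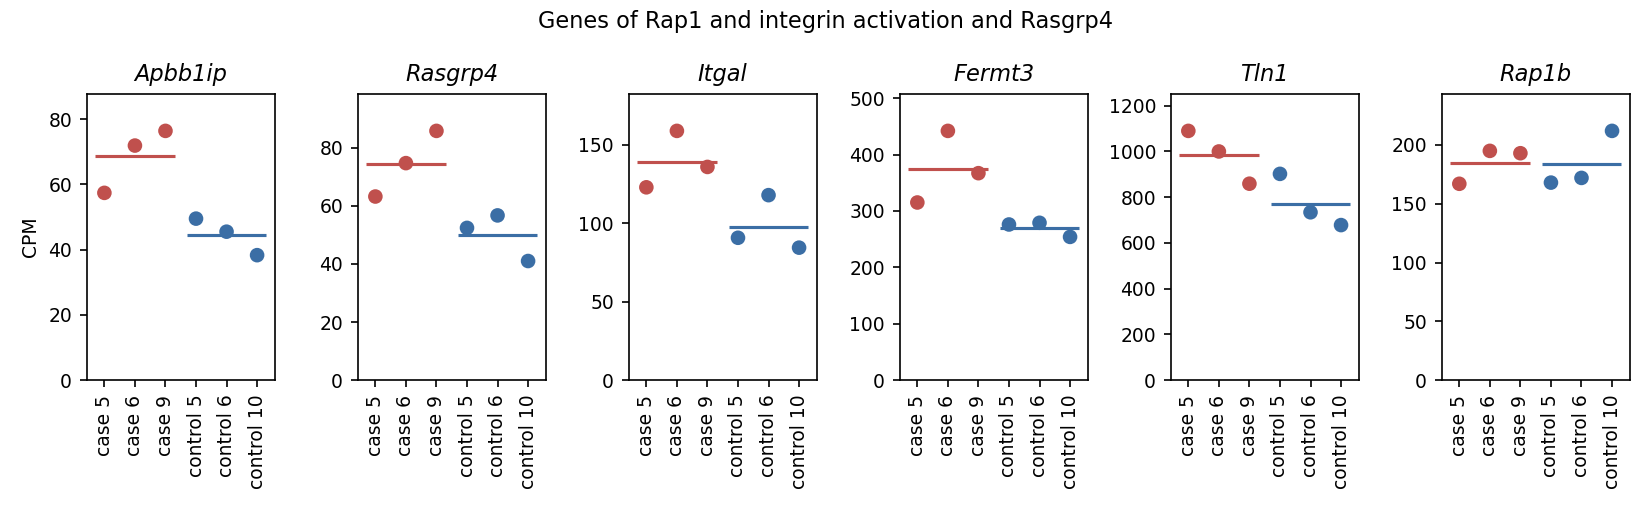
CPM (vertical axis, linear from 0) of 5 genes of Rap1 and integrin activation and of Rasgrp4 in each library, case in red and control in blue, with lines at the group means. Apbb1ip, Rasgrp4, Itgal and Fermt3 have case values above all control values, while Tln1 and Rap1b overlap. The genes shown were picked: such groups were found in 3 of the 22 Rap1 and integrin activation genes and 4.05% of all tested genes. Apbb1ip is among the 3 as the gene nearest to Rasgrp2, and so by selection.

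The other Rasgrp genes encode relatives of the same exchange factor that act mainly on Ras. Rasgrp4, known from mast cells and other myeloid cells, was at 63.2, 74.7 and 85.8 CPM in case 5, 6 and 9, against 52.4, 56.7 and 41 CPM in control 5, 6 and 10. Its groups did not overlap, and its log2 fold change was 0.57 (SE 0.18, edgeR adjusted p 0.999). Rasgrp3, known from B cells and endothelium, was at 18.46 ± 2.72 and 21.66 ± 1.30 CPM, and Rasgrp1, known from T cells and here named outside the rule, at 7.513 ± 3.58 and 8.802 ± 3.14 CPM. Both had a log2 fold change of -0.23, with SE 0.18 and 0.42, and overlapping groups.

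Other platelet genes were divided into receptors, granule proteins with enzymes, and transcription factors, and 0 genes of these lists passed the edgeR test. Of 18 tested receptor genes, 8 had a positive log2 fold change and the median was -0.02. Separate groups were found in 0 of the 18, against 4.05% of all tested genes with case higher and 4.42% with case lower. The count of positive genes was 5 without case 5 and 11 without case 9. The thrombin receptor genes F2rl2 (26.65 ± 8.18 CPM in case and 20.34 ± 2.56 in control) and F2rl3 (11.62 ± 0.934 and 9.521 ± 1.5) were on the positive side. The adrenergic receptor gene Adra2a (4.442 ± 1.30 and 6.329 ± 1.12 CPM) and the tetraspanin gene Cd9 (261.9 ± 39.8 and 290.1 ± 35.4) were on the negative side. Fcer1g, the signalling chain that partners the collagen receptor and is shared with leukocytes, was at 243.5 ± 89.2 and 228.7 ± 67.8 CPM. Clec1b, the podoplanin receptor and here named outside the rule, was at 27 ± 4.77 and 26.35 ± 7.63 CPM.

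Of 19 tested granule and enzyme genes, 16 were positive with a median of 0.17. The count of positive genes was 13 without case 5 or without case 6. The median was 0.08 without case 6, 0.29 without control 10 and 0.06 without both libraries numbered 5. Groups were separate with case higher in F13a1, the transglutaminase subunit of coagulation factor XIII that macrophages also make (89.72 ± 8.83 and 69.56 ± 7.07 CPM), and in Nbeal2, which is needed to form alpha granules (165.6 ± 13.6 and 131.3 ± 14.6). These are 2 of the 19 genes, where the share over all tested genes was 4.05%. The proteoglycan gene Srgn, shared with leukocytes, was at 424.4 ± 180 and 331.8 ± 117 CPM. Thbs1, which encodes thrombospondin 1 and is made by many cells, was at 686 CPM in case 5 and between 142 and 326 CPM in the other 5 libraries. Selp, the P-selectin gene of platelets and endothelium, was at 39.76 ± 6.48 and 49.11 ± 7.71 CPM.

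Of 15 megakaryocyte transcription factor genes, 11 were positive with a median of 0.16, which was 0.34 without both libraries numbered 5. Nfe2, needed for platelet release, was at 174 ± 28.5 and 146.5 ± 18.4 CPM, Lyl1 at 70.41 ± 6.90 and 57 ± 7.88, Etv6 at 12.67 ± 2.11 and 10.13 ± 1.48, and the cofactor gene Ldb1 at 175.3 ± 31.2 and 150.2 ± 10.2. Groups were separate, with case higher, in Runx1 (38.37 ± 1.69 and 34.63 ± 1.84 CPM) and Mafg (126.5 ± 3.14 and 113 ± 13.3), named after their values were seen. These are 2 of the 15 genes, where the share over all tested genes was 4.05%. Gata1, the factor shared by megakaryocytes and red cell precursors, was at 12.05 ± 4.86 and 14.8 ± 9.63 CPM with its highest value in control 5 (25.2 CPM), and was named outside the rule together with Fli1 (109.6 ± 14.1 and 96.52 ± 7.37), an ETS factor.

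Markers of T cells, B cells and mast cells mostly had positive log2 fold changes, while the median of neutrophil markers was near 0. All 11 tested T cell genes were positive (median 1), with summed levels of 283.9 to 408.4 CPM in case and 251.3 to 282.5 CPM in control. Most of each sum was Cd4 alone, at 197 to 270 CPM in case and 193 to 220 CPM in control. The sums therefore say little about the other T cell genes. The median of the T cell list was 0.61 without case 6, when 9 genes were positive, and 0.63 without control 5. Of 12 B cell genes 11 were positive (median 0.80, and 0.57 without control 10), with sums of 214.8 to 332.7 and 108.7 to 241 CPM. All 8 mast cell genes were positive (median 0.77), with sums of 84.69 to 163.6 and 73.36 to 75.89 CPM. Case 6 held the highest of these sums, and without it the median was 0.49. Neutrophil genes were positive in 8 of 12 (median 0.14, between -0.01 without control 5 and 0.45 without control 6), and their sums of 10160 to 22420 and 7975 to 21620 CPM overlapped. No gene of these lists passed the edgeR test, 1 (the mast cell tryptase gene Tpsab1) was called by DESeq2, and their part in the difference of Rasgrp2 was not tested.

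The 2 most abundant markers of each of these lists overlapped between the groups. Cd4 was at 233.7 ± 36.6 and 205.6 ± 13.6 CPM, Lck at 24.12 ± 7.76 and 14.61 ± 5.55, Cd79b at 63.16 ± 8.48 and 47.96 ± 22.2 and Ebf1 at 56.12 ± 27.1 and 52.23 ± 15.3. The mast cell genes Kit and Gata2 were at 20.89 ± 7.03 and 16.02 ± 2.01 and at 20.09 ± 3.81 and 16.74 ± 3.89 CPM. S100a9, the most abundant of all, was lower on average in case (6746 ± 3210 and 7317 ± 3910 CPM), and its partner S100a8 was at 3145 ± 1410 and 2937 ± 1270 CPM. Groups were separate with case higher in 1 of 11 tested T cell genes (Cd28) and 4 of 12 B cell genes (Ms4a1, Cd22, Cr2 and Bank1). The same held for 4 of 8 mast cell genes (Tpsab1, Tpsb2, Cpa3 and Hdc) and 0 of 12 neutrophil genes. Over all tested genes the share was 4.05%. The genes in brackets were named after their values were seen, and no set test was run. Cd28 was low, at 1.12 to 1.4 CPM in case and 0.175 to 0.551 CPM in control. A count of 0 allows up to 0.236 to 0.274 CPM in the control libraries. Cd5 of the T cell list and Ltf of the neutrophil list, named outside the rule, were at 0 in at least 1 library and too low to test, and every B cell and mast cell gene was detected in every library.

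Red cell and vessel markers had negative log2 fold changes. All 12 erythroid genes were negative with a median of -0.63, which was 0.02 without control 5, -0.20 without case 6, -0.38 without case 9 and -1.53 without case 5. Their sums were 1855, 327.1 and 682.3 CPM in case 5, 6 and 9 and 2361, 1362 and 818.8 CPM in control 5, 6 and 10. Case 6, the highest library for 4 of the 7 platelet genes, thus had the lowest erythroid sum. Alas2, the heme synthesis enzyme of red cell precursors, was at 27.2 CPM there and at 118 to 432 CPM elsewhere. The anion exchanger gene Slc4a1 was at 46.6 CPM there and at 154 to 841 CPM elsewhere. Only Epor and Klf1 of the list, named outside the rule, were not lowest in case 6. They were at 30.6 and 22.8 CPM there and at 15.6 and 14.9 CPM in control 10. All 10 endothelial genes were negative (median -0.31), with sums of 622.5 to 762.2 CPM in case and 799.4 to 898.3 in control. That median was -0.19 without case 9 or without control 10, with 1 gene positive each time. Eng and Tie1, the most abundant of them, were at 170.5 ± 29.9 and 192.4 ± 12.5 and at 154.4 ± 23.6 and 166.7 ± 6.54 CPM and overlapped. Groups were separate with case lower in 1 of 12 erythroid genes (Tfrc) and 2 of 10 endothelial genes (Pecam1 and Emcn). These were named after their values were seen, and 4.42% of all tested genes had such groups. No gene of either list passed the edgeR test, and their part in the platelet gene values was not tested.

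**Figure D5:**
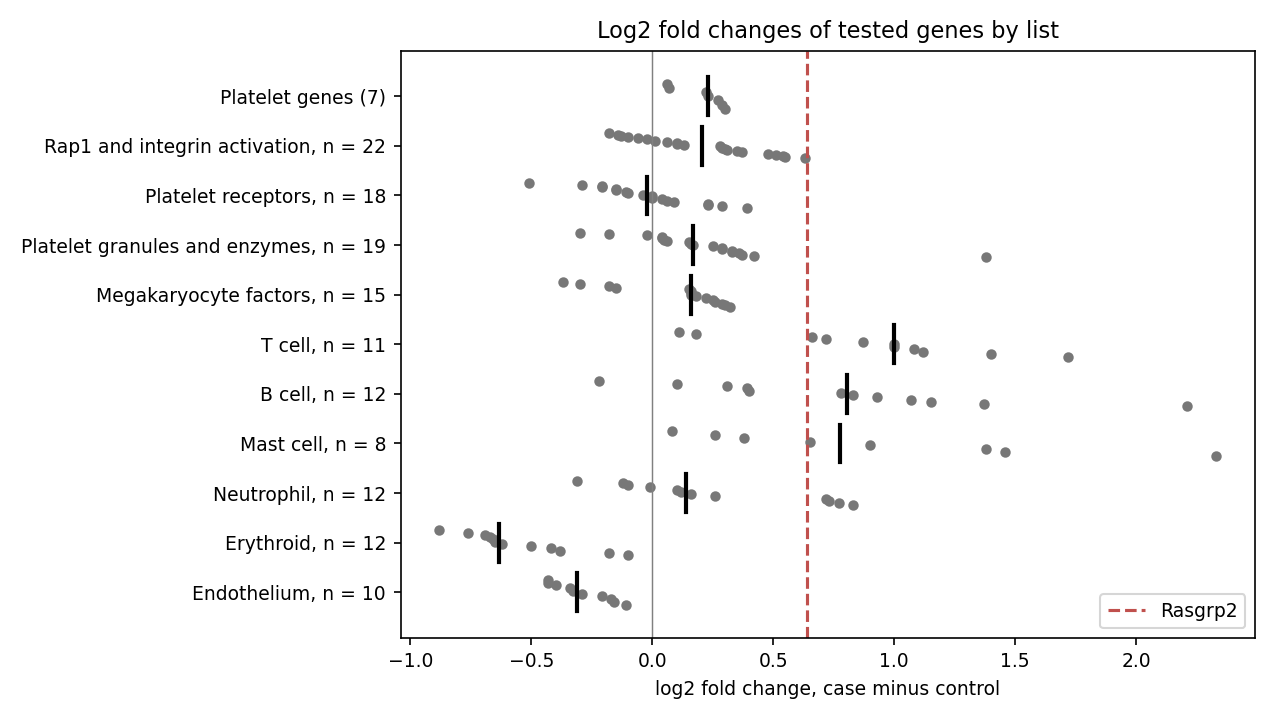
Log2 fold change, case minus control (horizontal axis), of every tested gene of each list (grey points, 1 per gene), with the list median as a black bar and Rasgrp2 (0.64) as a dashed red line. The 7 platelet genes lie between 0.06 and 0.30, and the medians of the T cell, B cell and mast cell lists are at 1, 0.80 and 0.77. With 1 library left out these ran from 0.61 to 1.45, 0.57 to 1.08 and 0.49 to 0.97 while Rasgrp2 ran from 0.59 to 0.73, so their order against Rasgrp2 was not kept.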

How the data were processed

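Per the labels' protocols, RNA was extracted with TRIzol, and single-end libraries were prepared with the Ion Total RNA-Seq kit. The authors deposited whole-number counts per gene symbol for 6 libraries, with no normalization as far as the values show. The aligner, counter, build, annotation and strand setting: not given in the sources used here. Columns were matched to samples by title. Genes were filtered with filterByExpr (16066 of 37203 left), scaled by the trimmed mean of M-values (TMM) and fitted by group in edgeR 4.0.16 (R 4.3.3; quasi-likelihood test), with a Benjamini-Hochberg threshold of 0.05. CPM are counts scaled to TMM-adjusted library size, and log2 CPM used a prior count of 2. On simulated counts for the same 16066 genes 10.4% of the 2-fold changes were called, as were 66.2% of the 4-fold and 87.9% of the 8-fold ones, with 7.08% false among the calls. A count of 0 allows up to 0.2 to 0.274 CPM (3 counts). Poisson intervals are at 95% and cover counting error only.

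The members and lists were chosen with earlier results of these data known. Genes named were the 8 members, the 3 of smallest p and 2 of highest mean CPM of each platelet, Rap1 and Rasgrp list, the 2 of highest mean CPM of each cell list, and the 5 nearest in pattern; the text marks genes named outside this rule. Cavin2 was not matched by symbol. Alternatives were other scalings, no filter, DESeq2 1.42.0, limma-voom (limma 3.58.1), each library left out in turn, and a block for the title number. Leaving out Gp1bb or both libraries numbered 5 was added after seeing the data. Names and neighbours came from RefSeq's table of GRCr8. Figures were drawn with matplotlib 3.10.9.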

Additional observations from a re-analysis of the deposited data

How the results depend on the processing

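Over the alternatives the log2 fold change of Rasgrp2 ran from 0.53 to 0.76, the upper value without both libraries numbered 5, and the median of the 7 platelet genes from 0.11 to 0.42. Leaving out each library in turn gave 0.59 to 0.73, 0.11 to 0.38 and, for Rasgrp2 relative to the platelet mean, 0.30 to 0.57. DESeq2 called 21 genes, where edgeR called 0 (666 at an unadjusted p under 0.05, 1113 with no filter and 2294 without both libraries numbered 5), limma-voom 0, and edgeR 0 to 2 with a library left out. Of 292 alternative values of 21 member and list results, 8 moved by at least the replicate SD and 17 had another sign; the cause was not tested. With the title number as a block, which rests on the pairs numbered 5 and 6, the platelet median was 0.42, Rasgrp2 relative to the platelet mean 0.17, Rasgrp2 0.53 and Ppbp 0.49, with 0 genes called (653 at an unadjusted p under 0.05). Deviations from the group means correlated at 0.38 between the libraries numbered 5 and 0.136 between those numbered 6, and at -0.338 to 0.283 between the other pairs. The labels do not say what a number marks, and 2 pairs do not settle whether it pairs the libraries. At this depth counting error alone is 7.91% for Gp1bb and 6.81% for Gp9, which limits small differences of these genes.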
